A study of Mus musculus with 15 samples.

Results

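Corneas of 3-month-old mice with 1 mutant copy of Opa1 (OPA1+/-, 4 libraries) were compared with corneas of wild-type mice of the same age (OPA1+/+, 4 libraries). These are 8 of the 15 RNA-seq libraries of a mouse study of cornea at 3 and 6 months. All 8 were chosen by genotype and age as labelled, and all 15524 genes with at least 10 counts in at least 3 of them, of 55357 annotated identifiers, were analysed. The submitters' title places the comparison in a study of mitochondrial dysfunction and the sensory innervation of the cornea. The labels give tissue, age and genotype; the kind of Opa1 mutation, the strain, the sex and the number of animals per library are not given in the sources used here, so p-values measure the spread between libraries. RNA was depleted of ribosomal RNA and sequenced with strand information as single reads of 75 bases. The files give 11673240 to 18194946 counts assigned to genes per library, and values below are counts per 1000000 (CPM) with library totals scaled by the TMM method, listed in the order of replicates 1 to 4.

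OPA1 is a dynamin-like GTPase of the inner mitochondrial membrane. It joins the inner membranes of fusing mitochondria and holds the cristae, the folds that carry the respiratory chain, in shape; in humans, loss of 1 copy is the usual cause of dominant optic atrophy. The cornea is a clear, avascular tissue made of a stratified epithelium, a collagen stroma with keratocytes and a pump-bearing endothelium, and it is among the most densely innervated tissues. Its sensory axons come from cell bodies in the trigeminal ganglion, so most RNA of those neurons lies outside the tissue that was sampled.

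The tissue label was checked against defining markers, here as CPM without TMM scaling. Krt12, the corneal epithelial keratin, was at 27626 to 31204 CPM in OPA1+/- and 27020 to 32902 CPM in OPA1+/+ libraries, and Kera, a keratocyte proteoglycan, at 192 to 214 CPM in OPA1+/- and 158 to 231 CPM in OPA1+/+ libraries. The endothelial transporter Slc4a11 was present in all 8 libraries. Scn10a and Calca, which mark nociceptive neurons, had no count in any of the 8. Xist (1502 to 1804 CPM over the 8 libraries) and the Y-linked Ddx3y (32.8 to 41.6 CPM) were both present in every library. Their ranges were similar in the 2 genotypes, so each library held RNA of both sexes, though the labels do not state it. The OPA1+/- replicate 4 stood apart in retinal RNA: the mean of the log2 values of the measured retinal transcripts, centred on the 8 libraries, was -0.29, -0.77, -0.29 and 2.49 in OPA1+/- libraries, against -0.57, 0.021, -0.73 and 0.14 in OPA1+/+ libraries. The OPA1+/+ replicate 4 stood apart in mitochondrial messenger RNA, as described below.

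Opa1 was the 1 gene whose level differed between the genotypes past the threshold (adjusted p under 0.05), and it fell by 25.1% in OPA1+/- corneas. Opa1 (ENSMUSG00000038084.17, chr16:29398152-29473702, plus strand, in the coordinates of the deposited files) was at 57.7, 49.9, 45.4 and 50.6 CPM in OPA1+/- libraries, against 70.9, 65.2, 69.0 and 66.5 CPM in OPA1+/+ libraries. All 4 OPA1+/- libraries lay below all 4 OPA1+/+ libraries. The means were 50.9 ± 5.09 CPM and 67.9 ± 2.53 CPM (SD, n = 4 each), and the log2 difference was -0.41 ± 0.06 (SE; edgeR quasi-likelihood test over all genes, Benjamini-Hochberg adjusted p = 0.0172). An exact two-sided permutation test over the libraries gave p = 0.0286, the smallest that 70 splits of 4 against 4 allow. In whole-tissue RNA, less transcript per cell and fewer cells of a type cannot be told apart. Leaving out 1 library moved the log2 difference between -0.48 and -0.36, and the call was lost without the OPA1+/- replicate 2, 3 or 4 or the OPA1+/+ replicate 1 (edgeR adjusted p of 0.0585, 0.0906, 0.0614 and 0.125). It was also lost when these 8 libraries were fitted without the 7 of 6 months that share the estimate of spread (edgeR adjusted p = 0.0557).

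In all, 1 of 15524 genes (0.00644%) was called by edgeR, and no gene was called higher. At an unadjusted p under 0.05, 746 genes were higher (4.81%) and 669 lower (4.31%), and DESeq2, the other count test run, called 44 of 13709 genes (0.321%). Without the OPA1+/+ replicate 4, edgeR called 19 genes, 11 higher and 8 lower; without any other library it called 0 to 2. As a description that needs no test, the 4 libraries of the genotypes did not overlap for 393 genes that were higher in OPA1+/- corneas (2.53% of those kept) and for 330 that were lower (2.13%). The shares of gene groups below are read against those 2 percentages. The groups were written with earlier results of these data known, so a high share describes a group and does not test it. The median log2 difference over all genes was -0.0014, and 49.6% of genes had a positive one.

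None of the measured transcripts for proteins that work with OPA1 separated the genotypes. Of 26 genes for mitochondrial fusion and crista shape other than Opa1, 25 passed the filter on low counts; none had an unadjusted p under 0.05, none had libraries that did not overlap, and their median log2 difference was 0.04. Mfn1 and Mfn2, the outer-membrane fusion GTPases, differed by -0.06 ± 0.05 and 0.05 ± 0.05 (SE) on the log2 scale. The proteases that cut OPA1 into its short forms, Oma1 and Yme1l1, differed by -0.12 ± 0.09 and 0.00 ± 0.04. Immt, the core of the crista junction complex, was at 73.5, 74.7, 78.0 and 74.0 CPM in OPA1+/- libraries, against 72.1, 68.7, 83.5 and 76.1 CPM in OPA1+/+ libraries, a spread that was wider in the wild type than in the heterozygotes. The members farthest from 0 were the scarcely counted Apoo (-0.41 ± 0.24), Chchd6 (-0.29 ± 0.15) and Chchd10 (0.23 ± 0.13). The other members, Mtx1, Mtx2, Stoml2, Samm50, Msto1, Phb, Phb2, Afg3l2, Spg7, Chchd3, Minos1, Apool, Sirt3, Letm1, Slc25a46, Pla2g6 and 2410015M20Rik, lay between -0.05 and 0.12. Per length of transcript, Opa1 averaged 23.4 TPM (CPM divided by transcript length and rescaled) in OPA1+/- and 30.7 TPM in OPA1+/+ corneas, which put it below Mfn1 (33.2 and 34.1 TPM) and Mfn2 (78.9 and 75.3 TPM) in both genotypes.

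The fission machinery was likewise close to equal, with a median log2 difference of 0.01 over 12 measured genes and no gene whose libraries did not overlap. Dnm1l, the GTPase that constricts mitochondria, differed by 0.03 ± 0.05, and its receptors Fis1, Mff and Mief1 by 0.01, -0.02 and 0.01. Mief2, another receptor for DNM1L on the outer membrane, was the member with the smallest p. It was at 11.01, 10.4, 11.7 and 9.84 CPM in OPA1+/- libraries, against 8.34, 5.88, 7.94 and 9.97 CPM in OPA1+/+ libraries. One OPA1+/- library lay just below the highest OPA1+/+ library, and the difference of 0.42 ± 0.14 did not pass the test (edgeR adjusted p = 0.395). The remaining members, Dnm2, Inf2, Spire1, Mtfp1, Mtfr1, Mtfr1l and Mtfr2, lay between -0.36 and 0.28.

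RNA of the mitochondrial genome took up a smaller share of the counts in OPA1+/- corneas. Among the mitochondrial genes that received counts, that difference came mostly from the 2 ribosomal RNAs. The share was 2.50%, 2.60%, 2.72% and 2.53% in OPA1+/- libraries, against 2.99%, 3.10%, 2.82% and 2.95% in OPA1+/+ libraries. The genotypes did not overlap, and the means of 2.59% ± 0.0980 and 2.96% ± 0.116 (SD, n = 4 each) gave an exact two-sided permutation p of 0.0286, the smallest possible. Mt-Rnr1 and mt-Rnr2, the genes of the mitochondrial small and large ribosomal RNA, made up 2.10% to 2.29% of counts in OPA1+/- and 2.37% to 2.64% in OPA1+/+ libraries, again with no overlap (exact permutation p = 0.0286). Since the libraries were depleted of ribosomal RNA, these are the levels left after depletion, whose part in the result was not tested.

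The gene mt-Rnr2 (chrM:1094-2675) was at 14749, 16029, 16025 and 14853 CPM in OPA1+/- libraries, against 17913, 18824, 17651 and 18771 CPM in OPA1+/+ libraries. Every OPA1+/- library was lower, by -0.25 ± 0.04 on the log2 scale, which missed the threshold in edgeR (adjusted p = 0.0777) and passed it in DESeq2. For mt-Rnr1 the values were 6052, 6285, 6910 and 6356 CPM in OPA1+/- libraries, against 7173, 7684, 6400 and 7290 CPM in OPA1+/+ libraries, so that the highest OPA1+/- library lay above the lowest OPA1+/+ one (-0.16 ± 0.05, edgeR adjusted p = 0.401).

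The mitochondrially encoded subunits of the respiratory chain differed in how they separated the genotypes. The gene mt-Nd6 (chrM:13552-14070, minus strand), the only protein-coding gene on the light strand, was at 57.6, 48.6, 51.1 and 45.6 CPM in OPA1+/- libraries, against 59.8, 64.3, 61.5 and 70.7 CPM in OPA1+/+ libraries. Its genotypes did not overlap (-0.34 ± 0.08, edgeR adjusted p = 0.196). The gene mt-Nd5 was at 508, 483, 576 and 533 CPM in OPA1+/- libraries, against 632, 628, 625 and 429 CPM in OPA1+/+ libraries. Here 3 OPA1+/+ libraries lay above every OPA1+/- library and replicate 4 lay below all of them, and mt-Co1, mt-Nd4 and mt-Cytb had the same arrangement, with log2 differences of -0.19, -0.02 and -0.05. For mt-Nd1 the difference was -0.07 and the OPA1+/+ replicate 4 was lowest as well. For mt-Nd2 the OPA1+/+ replicate 4 was again the lowest of the 8, at 270 CPM, and the difference was 0.15 ± 0.14. The share of counts from mitochondrial genes other than the ribosomal RNAs was 0.393%, 0.390%, 0.431% and 0.410% in OPA1+/- libraries, against 0.463%, 0.462%, 0.447% and 0.343% in OPA1+/+ libraries (exact two-sided permutation p = 0.457). Without the OPA1+/+ replicate 4, mt-Co1 was called lower (-0.28, edgeR adjusted p = 0.0467). Of 15 mitochondrially encoded genes looked for, 9 passed the filter. Of the rest, mt-Nd4l, mt-Co2, mt-Co3 and mt-Atp8 had no count in any of the 8 libraries. The genes mt-Nd3 and mt-Atp6 had at most 2 counts in a library. The share of genes other than the ribosomal RNAs therefore holds almost nothing from these genes, and the cause was not tested.

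**Figure D1:**
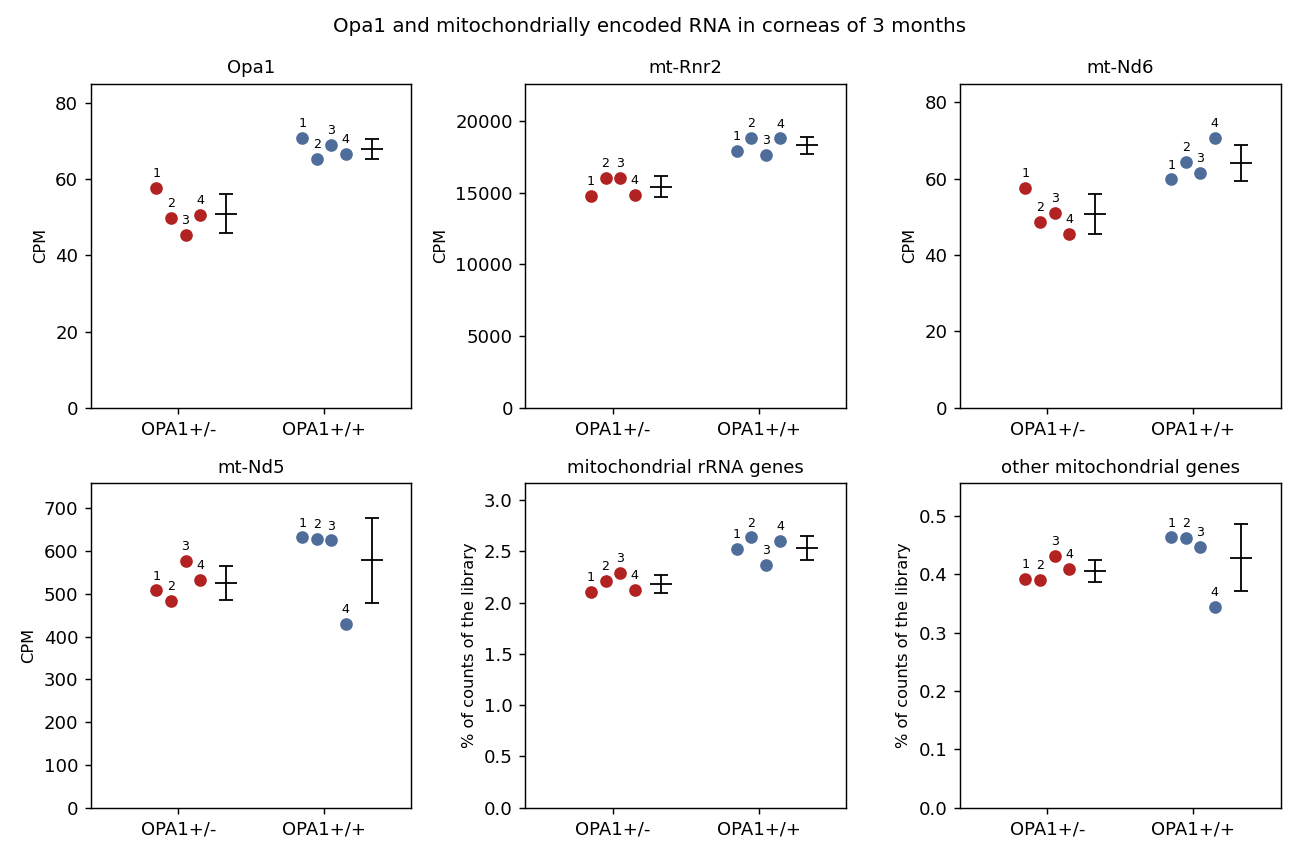
Opa1, 3 mitochondrially encoded genes (TMM-scaled CPM) and the shares of counts from mitochondrial genes (percent), one panel each, with OPA1+/- libraries left and OPA1+/+ libraries right; points carry the replicate number and the bars give the mean and SD of 4 libraries. Opa1, mt-Rnr2, mt-Nd6 and the ribosomal RNA share do not overlap between genotypes, while the OPA1+/+ replicate 4 lies below all others for mt-Nd5 and for the share without ribosomal RNA genes.

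The nuclear genes of the mitochondrion were near the level of the whole transcriptome. Of the subunits of the respiratory chain and ATP synthase, 36 genes of complex I had a median log2 difference of 0.02, 14 of complexes II and III 0.03, 13 of complex IV 0.02 and 18 of complex V 0.01. In each of those 4 groups 1 gene had libraries that did not overlap, each higher in OPA1+/- corneas: Ndufa9, Cyc1, Cox6c and Atp5g2. These single genes were 2.78%, 7.14%, 7.69% and 5.56% of their groups, beside 2.53% of all genes. Among 26 genes that copy and transcribe mitochondrial DNA, the 1 gene with libraries that did not overlap was Gabpa, a transcription factor for respiratory genes, lower at 51.9, 55.0, 50.5 and 54.6 CPM in OPA1+/- against 57.9, 57.8, 57.5 and 56.9 CPM in OPA1+/+ libraries (-0.12 ± 0.05). Genes of the integrated and mitochondrial stress responses had a median of 0.02 over 31, with Clpp, the matrix protease, the 1 that did not overlap (0.20 ± 0.08). Atf4, the transcription factor at the centre of that response, differed by 0.32 ± 0.16 with overlapping libraries. Genes of mitophagy had a median of 0.01 over 23, and their 1 non-overlapping member, Bnip3, belongs also to the hypoxia response described below. Gabpa, Clpp and Bnip3 were 3.85%, 3.23% and 4.35% of their groups, beside 2.13% of all genes lower and 2.53% higher. With 1 library fewer, the non-overlapping higher genes numbered up to 7 for the stress responses (without the OPA1+/+ replicate 3, beside 5.15% of all genes), 4 for complex I (without the OPA1+/+ replicate 4, 4.91%) and 4 for complex IV (without the OPA1+/- replicate 1, 3.96%).

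The 12 genes with the smallest p on each side, at a mean of at least 1 CPM, showed differences of modest size: the median of their absolute log2 differences was 0.35, and 1 of the 24, Slc16a3, reached 2-fold. Besides Opa1, none passed the edgeR threshold, and the libraries of 23 of the 24 did not overlap, which the choice by p favours. DESeq2 called 21 of them. On the higher side stood Rai1, a chromatin-associated transcriptional regulator, at 80.3, 73.9, 82.6 and 82.1 CPM in OPA1+/- libraries, against 60.997, 62.4, 64.3 and 63.4 CPM in OPA1+/+ libraries. Each genotype spanned a narrow range with a clear gap between them (0.35 ± 0.06, edgeR adjusted p = 0.0669). Slc16a3, which encodes the lactate exporter MCT4 (chr11:120839306-120851694, plus strand), was at 3.45, 2.82, 3.60 and 3.19 CPM in OPA1+/- libraries, against 1.11, 0.799, 1.34 and 1.70 CPM in OPA1+/+ libraries. Those values rest on 37 to 58 reads in OPA1+/- and 11 to 20 reads in OPA1+/+ libraries, and the lowest OPA1+/- library was above the highest OPA1+/+ one (1.41 ± 0.26, edgeR adjusted p = 0.0786).

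Itga3, the integrin chain that binds laminins under the epithelium, was at 312, 316, 351 and 339 CPM in OPA1+/- libraries, against 262, 265, 273 and 270 CPM in OPA1+/+ libraries, with no overlap (0.30 ± 0.06, edgeR adjusted p = 0.125). Zyx, a focal adhesion protein that binds actin, was at 73.2, 66.9, 81.9 and 70.9 CPM in OPA1+/- libraries, against 46.1, 51.5, 58.0 and 61.8 CPM in OPA1+/+ libraries (0.43 ± 0.09). Tnfrsf12a, the receptor for the cytokine TWEAK, was at 13.9, 13.9, 18.8 and 14.2 CPM in OPA1+/- libraries, against 7.15, 9.73, 9.91 and 9.29 CPM in OPA1+/+ libraries (0.74 ± 0.15). Dkk2, a secreted modulator of Wnt signalling that keeps the corneal epithelium from taking on a skin-like fate in mice, was higher too, at 58.4, 48.1, 56.5 and 60.0 CPM in OPA1+/- against 34.5, 35.6, 38.4 and 43.7 CPM in OPA1+/+ libraries (0.55 ± 0.11). The remaining 6 were Dusp3, a phosphatase of MAP kinases (0.41 ± 0.08, adjusted p = 0.0786 in edgeR), Fjx1 (0.34 ± 0.06), the mitochondria-associated small GTPase Rab32 (0.48 ± 0.10), Wwc2 (0.24 ± 0.05), the kinase Plk2 (0.28 ± 0.06) and Csmd2 (0.77 ± 0.18), with edgeR adjusted p up to 0.196.

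On the lower side, Cyp39a1, an oxysterol hydroxylase of bile acid synthesis, was at 55.7, 58.6, 61.98 and 59.7 CPM in OPA1+/- libraries, against 76.0, 81.5, 65.4 and 75.8 CPM in OPA1+/+ libraries (-0.34 ± 0.06, edgeR adjusted p = 0.0669). The KIT ligand gene Kitl was at 33.6, 39.4, 35.8 and 33.9 CPM in OPA1+/- libraries, against 45.5, 45.2, 45.6 and 46.5 CPM in OPA1+/+ libraries. The OPA1+/+ values were nearly equal and above all OPA1+/- values (-0.36 ± 0.07, edgeR adjusted p = 0.125). Slc5a3, the myo-inositol transporter, differed by -0.31 ± 0.07, the ganglioside sialidase Neu3 by -0.33 ± 0.07 and the long noncoding RNA Dleu2 by -0.25 ± 0.06. Cdca2, which brings a phosphatase to mitotic chromosomes, differed by -0.54 ± 0.11, Gen1, a resolvase of DNA recombination, by -0.59 ± 0.13, Tubd1, the delta tubulin of centrioles, by -0.48 ± 0.11, and Dlgap5, a spindle protein, by -0.49 ± 0.11. Dlgap5 was the 1 of the 24 whose libraries overlapped, at 14.3, 15.6, 20.2 and 17.7 CPM in OPA1+/- against 22.3, 29.3, 24.2 and 18.9 CPM in OPA1+/+ libraries. DESeq2 also placed Glul, glutamine synthetase, among its 6 smallest lower p-values (-0.51, DESeq2 adjusted p = 0.00410), at 982, 1338, 1079 and 1154 CPM in OPA1+/- against 1714, 1691, 1370 and 1702 CPM in OPA1+/+ libraries. Its edgeR adjusted p was 0.246.

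**Figure D2:**
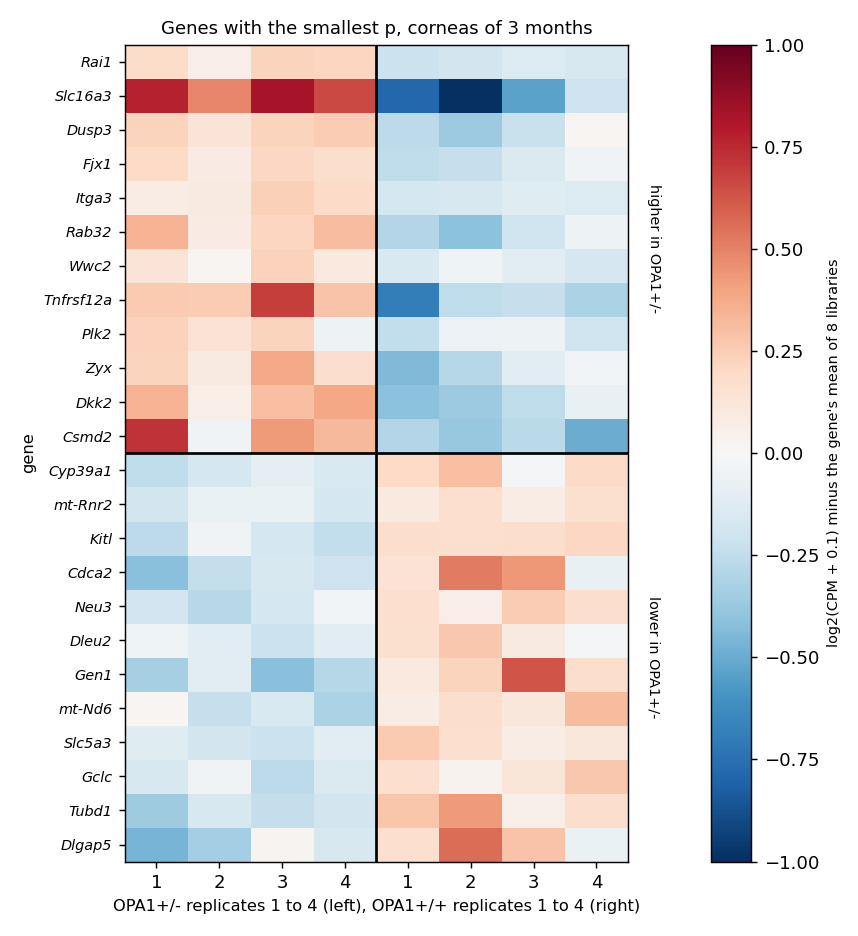
Heat map of the 12 higher and 12 lower genes with the smallest p, one row per gene and one column per library (4 OPA1+/- left, 4 OPA1+/+ right), coloured by log2 CPM minus the mean of the 8 libraries. All rows but Dlgap5 separate the genotypes without overlap; the rows were chosen on this contrast.

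The 12 higher genes included Slc16a3, and a wider set of hypoxia and glycolysis genes lay on the same side. HIF transcription factors bind promoters at a short core, ACGTG or GCGTG, and Slc16a3 and Bnip3 are known targets of HIF1A in mammals. The 250 bases before the start of each gene are shown because these were the 2 members with the largest differences above 3 CPM in OPA1+/- corneas. They come from RefSeq on GRCm38.p6 (not the build of the count files), 5′ to 3′ on the gene's strand, at chr11:120948817-120949066 (plus strand) and chr7:138909507-138909756 (minus strand), with every core on either strand in capitals.
Slc16a3: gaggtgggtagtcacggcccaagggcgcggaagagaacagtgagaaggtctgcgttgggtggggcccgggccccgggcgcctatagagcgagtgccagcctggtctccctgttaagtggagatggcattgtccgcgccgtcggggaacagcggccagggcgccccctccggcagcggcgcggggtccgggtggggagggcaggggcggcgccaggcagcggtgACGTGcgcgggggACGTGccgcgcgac
Bnip3: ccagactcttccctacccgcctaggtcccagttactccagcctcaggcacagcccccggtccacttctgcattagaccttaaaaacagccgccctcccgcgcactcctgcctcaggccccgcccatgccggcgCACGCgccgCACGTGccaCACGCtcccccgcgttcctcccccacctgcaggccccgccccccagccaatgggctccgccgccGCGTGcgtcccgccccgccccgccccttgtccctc

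The Slc16a3 stretch holds 2 cores and the Bnip3 stretch 5, of which the palindrome CACGTG counts on both strands and is also an E-box, a site of other factors. By gene, a core was present before at least 1 start of 18 of the 20 kept hypoxia genes with a RefSeq promoter (90.0%). The same held for 20 of 23 glycolysis genes (87.0%) and 5 of 10 of the 12 higher genes (50.0%). Of all 10581 kept genes matched, 60.6% had a core. By promoter, since some genes have several, these shares were 73.1%, 81.1% and 45.5%, beside 54.5% for all kept genes. The hypoxia group was made of genes known for this response, so its share says nothing on these corneas. The Opa1 promoter held none. A match describes the letters and not binding.

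In the hypoxia response, 8 of 25 measured genes (32%) had libraries that did not overlap, all higher in OPA1+/- corneas. The share over all genes was 2.53%. The group was written with earlier results of these data known, so its share is a description and not a test. At an unadjusted p under 0.05, 12 of its genes were higher and 0 lower, beside 4.81% of all genes higher and 4.31% lower. None passed the edgeR threshold, 17 of 25 differences were positive, and the median log2 difference was 0.19. The mitophagy receptor Bnip3 (chr7:138492565-138511248, minus strand) was at 3.71, 3.81, 3.60 and 3.52 CPM in OPA1+/- libraries, against 1.62, 1.89, 2.04 and 1.36 CPM in OPA1+/+ libraries. It was 2.12-fold higher by its means, from 46 to 64 reads in OPA1+/- and 16 to 26 in OPA1+/+ libraries, and no library crossed between the groups (1.07 ± 0.25, edgeR adjusted p = 0.196). Ndufa4l2, a mitochondrial protein made under low oxygen, was at 2.39, 1.98, 1.88 and 1.87 CPM in OPA1+/- against 1.62, 0.871, 1.18 and 1.19 CPM in OPA1+/+ libraries (0.75 ± 0.21, edgeR adjusted p = 0.272).

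The most abundant of the 8 was Egln3, a prolyl hydroxylase that marks HIF for destruction and is itself a HIF target, at 760, 676, 766 and 720 CPM in OPA1+/- libraries, against 667, 658, 612 and 633 CPM in OPA1+/+ libraries (0.19 ± 0.06). Its genotypes were separated by a narrow gap. Vegfa, the angiogenic and neurotrophic growth factor, was at 15.3, 17.8, 19.0 and 14.5 CPM in OPA1+/- against 8.25, 8.71, 13.9 and 12.2 CPM in OPA1+/+ libraries (0.62 ± 0.19). P4ha1, a collagen prolyl hydroxylase, was at 35.8, 37.0, 34.7 and 34.3 CPM in OPA1+/- against 30.97, 29.5, 29.6 and 30.3 CPM in OPA1+/+ libraries (0.24 ± 0.09). Ankrd37 rested on 11 to 19 reads in OPA1+/- and 1 to 8 reads in OPA1+/+ libraries (1.42 ± 0.54), and Ndrg1 and Hif1a itself differed by 0.23 ± 0.10 and 0.09 ± 0.05. Other targets did not share the arrangement: Slc2a1, the glucose importer, differed by 0.23 ± 0.09 with overlapping libraries, Car9 by 0.21 ± 0.13, Pdk1 by -0.04 ± 0.07, and Epas1, the HIF subunit most abundant in these libraries, by -0.14 ± 0.09.

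For glycolysis and lactate handling, 23 of 25 differences were positive and the median was 0.15. At an unadjusted p under 0.05, 10 genes were higher and 0 lower, beside 4.81% of all genes higher and 4.31% lower. In 4 genes (16%) the libraries did not overlap, all higher, beside 2.53% of all genes. These were Slc16a3, Pgam1, Pfkp and Pfkfb3. The glycolytic mutase Pgam1 was at 10.7, 11.1, 10.7 and 10.7 CPM in OPA1+/- libraries, against 8.42, 7.62, 10.5 and 6.13 CPM in OPA1+/+ libraries (0.40 ± 0.13). Pfkp, the platelet form of phosphofructokinase, was at 14.5, 17.99, 15.1 and 18.3 CPM in OPA1+/- against 11.3, 10.5, 13.8 and 12.2 CPM in OPA1+/+ libraries (0.47 ± 0.16), and Pfkfb3, which makes its activator, differed by 0.16 ± 0.06. The OPA1+/- values of Pgam1 were nearly equal while the OPA1+/+ values scattered. The most abundant enzymes were close to equal, with Ldha at 0.01 ± 0.07 and Pkm at 0.00 ± 0.07, and Slc16a1, the other lactate transporter, at 0.02 ± 0.15. The mean of the members' log2 values, centred on the 8 libraries, lay between 0.06 and 0.12 in OPA1+/- libraries and between -0.20 and 0.01 in OPA1+/+ libraries, where replicates 1 and 2 lay lower than 3 and 4. For the hypoxia genes it lay between 0.02 and 0.16 in OPA1+/- libraries and between -0.15 and -0.09 in OPA1+/+ libraries. Those means weigh scarce and abundant genes alike, and the summed CPM of each group overlapped. The hypoxia sum was 2662 to 2880 CPM in OPA1+/- and 2547 to 2867 CPM in OPA1+/+ libraries. The glycolysis sum was 2187 to 2364 CPM in OPA1+/- and 1918.5 to 2288 CPM in OPA1+/+ libraries. Leaving out any 1 library gave 8 to 10 non-overlapping higher hypoxia genes and 4 to 8 glycolysis genes (8 without the OPA1+/- replicate 1, 7 without the OPA1+/+ replicate 3 or 4), while the share over all genes was between 3.61% and 5.44%.

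**Figure D3:**
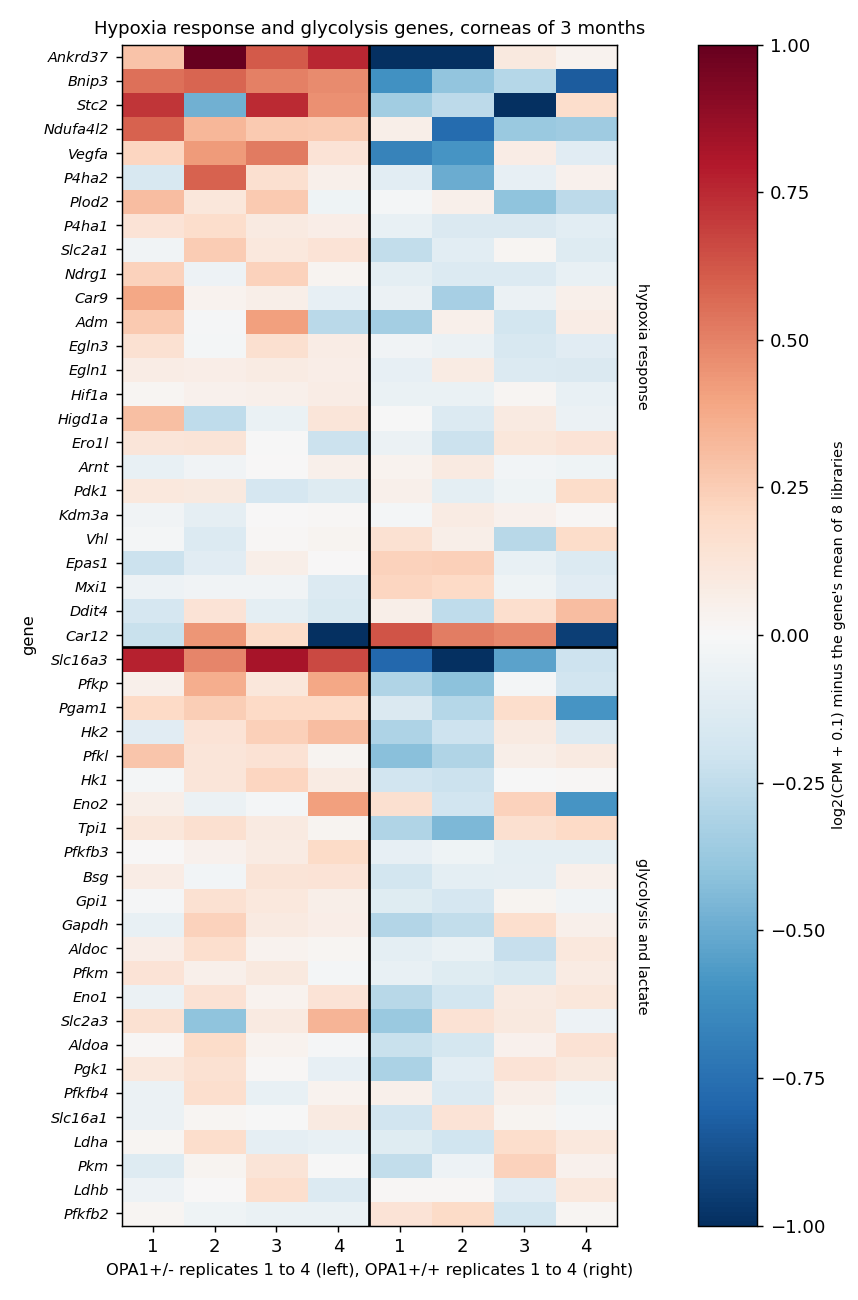
Heat map of the measured hypoxia and glycolysis genes, one row per gene and one column per library (4 OPA1+/- left, 4 OPA1+/+ right), coloured by log2(CPM + 0.1) minus the mean of the 8 libraries, with colours clipped at 1 on either side. Rows such as Bnip3, Ndufa4l2 and Slc16a3 separate the genotypes, while rows such as Ldha, Pkm and Epas1 vary within them.

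Genes for the oxidation of pyruvate and fatty acids had medians closer to 0 or an even split of signs. The summed CPM of the fatty acid oxidation genes was nevertheless lower in OPA1+/- corneas without overlap. It was 1290 to 1388 CPM in OPA1+/- and 1396 to 1510 CPM in OPA1+/+ libraries, while the mean of their centred log2 values overlapped. At an unadjusted p under 0.05, 3 of these genes were lower and 0 higher, beside 4.31% of all genes lower. Of 27 genes of pyruvate entry and the tricarboxylic acid cycle, the 1 with libraries that did not overlap was Mpc2, a subunit of the mitochondrial pyruvate carrier, lower in OPA1+/- corneas, and the median was 0.01. Of 20 fatty acid oxidation genes, 10 differences were positive and 10 negative, and Acsl1, which activates long-chain fatty acids, was lower at 433, 529, 498 and 504 CPM in OPA1+/- against 591, 545, 546 and 535 CPM in OPA1+/+ libraries (-0.17 ± 0.06, edgeR adjusted p = 0.366). In the antioxidant group the 2 subunits of glutamate-cysteine ligase, which catalyses the first step of glutathione synthesis, were both lower without overlap. Gclc, the catalytic subunit, was at 54.0, 58.8, 50.3 and 54.5 CPM in OPA1+/- libraries, against 67.6, 61.8, 65.3 and 72.5 CPM in OPA1+/+ libraries (-0.30 ± 0.07, edgeR adjusted p = 0.196). Gclm, the modifier subunit, was at 24.3, 24.1, 24.8 and 22.0 CPM in OPA1+/- libraries, against 27.99, 27.9, 27.8 and 28.1 CPM in OPA1+/+ libraries (-0.23 ± 0.06, edgeR adjusted p = 0.216). Gsr, glutathione reductase, lay on the other side at 53.1, 53.1, 58.4 and 55.8 CPM in OPA1+/- against 45.9, 47.1, 49.3 and 47.5 CPM in OPA1+/+ libraries (0.21 ± 0.07), and the median of the 23 antioxidant genes was 0.02.

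Genes of the epithelial anchorage to its basement membrane included more higher than lower members: of 30 measured, 22 differences were positive, and 3 did not overlap on the higher side (10%) and 1 on the lower (3.33%). The count on the higher side was 5 without the OPA1+/- replicate 2 or the OPA1+/+ replicate 3 or 4. The share over all genes also rose in those settings, to 5.44%, 5.15% and 4.91%. Itga3 was given above. Itgb4, the hemidesmosome integrin, was at 877, 877, 891 and 855 CPM in OPA1+/- libraries, against 619, 628, 796 and 764 CPM in OPA1+/+ libraries. The OPA1+/- values were almost the same and above all OPA1+/+ values, among which replicates 1 and 2 lay apart from 3 and 4 (0.32 ± 0.07, edgeR adjusted p = 0.211). Lama3, a chain of the epithelial laminin, differed by 0.15, and Col4a1, a type IV collagen chain, was lower at 97.4, 97.5, 97.9 and 104 CPM in OPA1+/- against 117, 108, 110 and 112 CPM in OPA1+/+ libraries (-0.17 ± 0.06). For the cell types of the cornea the median log2 differences were -0.01 over 29 epithelial genes, 0.10 over 23 keratocyte genes and 0.04 over 17 endothelial genes. Of the keratocyte genes, 15 differences were positive, and 1 was higher without overlap; that count was 6 without the OPA1+/- replicate 2 (beside 5.44% of all genes) and 5 without the OPA1+/+ replicate 4 (4.91%).

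Genes for signals to axons were examined since the study concerns corneal innervation. Of 20 measured neurotrophic factors and receptors, 15 differences were positive with a median of 0.09, and 4 (20%) had libraries that did not overlap, all higher in OPA1+/- corneas: Nrg1, Vegfa, Ngfr and Igf1r. Nrg1, the axonal and epithelial ligand of ERBB receptors that Schwann cells depend on, was at 178, 158, 167 and 160 CPM in OPA1+/- libraries, against 87.2, 96.8, 133 and 122 CPM in OPA1+/+ libraries. It was 1.51-fold higher by its means, with a clear gap between the genotypes, and was called by DESeq2 (adjusted p = 0.00128) but not by edgeR (0.60 ± 0.13, adjusted p = 0.211). Ngfr, the low-affinity neurotrophin receptor, was at 101, 91.3, 90.0 and 84.3 CPM in OPA1+/- against 73.5, 83.9, 79.4 and 81.9 CPM in OPA1+/+ libraries (0.20 ± 0.07). Igf1r was at 392, 382, 394 and 383 CPM in OPA1+/- against 370, 370, 348 and 356 CPM in OPA1+/+ libraries (0.10 ± 0.04). The classical survival factors did not pass the test: Ntf3 differed by 0.09 ± 0.07, Artn by 0.19 ± 0.11, Gdnf by 0.00 ± 0.29 and Bdnf, near the limit of counting, by 0.29 ± 0.30.

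Axon guidance genes were mixed. Among 28 ligands, Sema3f (0.12 ± 0.04) and Efnb2 (0.15 ± 0.05) were higher without overlap (7.14%). Among 25 receptors, 1 was higher (4%) and 2 lower (8%) without overlap. Over all genes these shares were 2.53% higher and 2.13% lower. The semaphorin and VEGF co-receptor Nrp1 was at 27.3, 25.2, 20.01 and 20.2 CPM in OPA1+/- against 16.8, 19.1, 17.1 and 16.8 CPM in OPA1+/+ libraries (0.40 ± 0.11, edgeR adjusted p = 0.272). Epha1 and Plxnb1 lay on the other side. Of 10 measured Schwann cell genes, 4 differences were positive and 6 negative. Only 3 of 26 sensory neuron and axon transcripts passed the filter, Piezo2, Gap43 and P2rx3, so at this depth no statement on the axons themselves was possible.

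**Figure D4:**
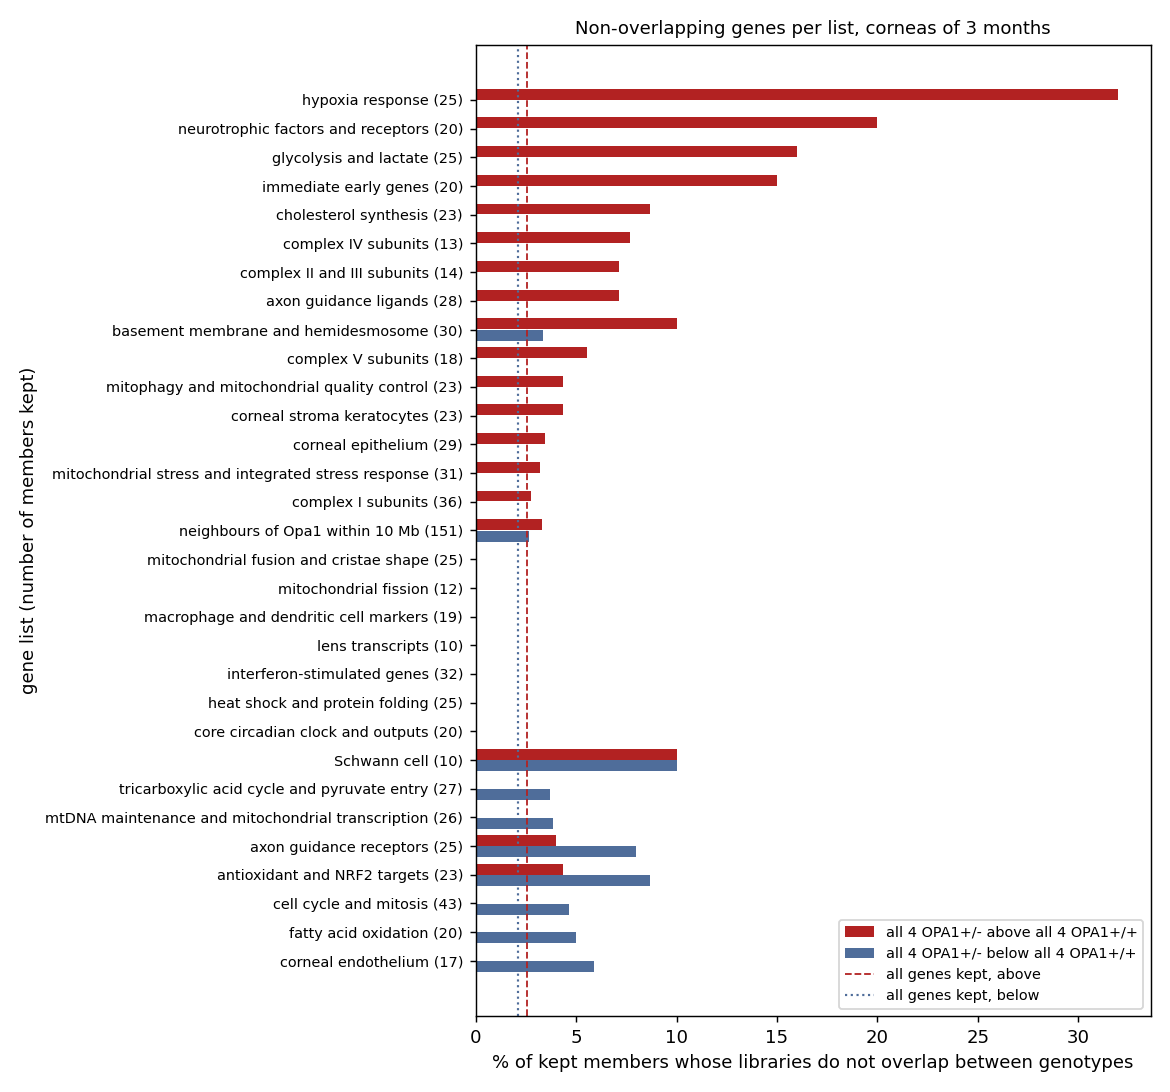
Percent of the measured genes of each group whose 4 OPA1+/- libraries lay all above (higher) or all below (lower) the 4 OPA1+/+ libraries, for groups with at least 10 measured genes; the vertical lines give the same share over all 15524 genes (2.53% higher, 2.13% lower). Hypoxia genes (32%), neurotrophic genes (20%) and glycolysis genes (16%) have the longest bars on the higher side. The groups were written with earlier results of these data known, and Vegfa counts in both the hypoxia and the neurotrophic group.

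Genes of the cell cycle lay mostly on the lower side. Of 43 measured genes, 34 differences were negative with a median log2 difference of -0.27. At an unadjusted p under 0.05, 19 were lower and 0 higher, beside 4.31% of all genes lower. Only 2 (4.65%) were lower with libraries that did not overlap, beside 2.13% of all genes. That count was 7 without the OPA1+/- replicate 3 (beside 3.16% of all genes) or the OPA1+/+ replicate 4 (4.36%), and 5 without the OPA1+/+ replicate 1 (3.5%). Kif11, the spindle motor, was at 18.1, 18.9, 22.0 and 20.2 CPM in OPA1+/- against 23.0, 29.9, 31.3 and 22.9 CPM in OPA1+/+ libraries (-0.44 ± 0.11, edgeR adjusted p = 0.211). Ndc80, of the kinetochore, was at 8.76, 10.8, 10.2 and 8.30 CPM in OPA1+/- against 10.8, 13.5, 15.3 and 12.4 CPM in OPA1+/+ libraries (-0.46 ± 0.11). Other members divided the OPA1+/+ libraries, such as Mcm5 and E2f1, chosen after their values were seen. Mcm5, a helicase subunit, was at 42.3, 58.6, 41.4 and 45.6 CPM in OPA1+/- libraries, against 25.4, 31.9, 69.8 and 59.5 CPM in OPA1+/+ libraries (0.01 ± 0.27). E2f1, a transcription factor of entry into DNA replication, was at 7.63, 7.70, 7.35 and 7.86 CPM in OPA1+/- against 3.49, 4.21, 10.9 and 9.12 CPM in OPA1+/+ libraries. OPA1+/+ replicates 1 and 2 were the lowest and 3 and 4 the highest for both, with all OPA1+/- libraries between.

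In other groups some libraries of a genotype stood apart from the rest. Interferon-stimulated genes had 29 of 32 differences negative (median -0.18) but none with p under 0.05. OPA1+/- replicates 1 and 3 were low and 2 and 4 high: Trim30a was at 91.6, 188, 91.0 and 185 CPM in OPA1+/- against 170, 199, 180 and 140 CPM in OPA1+/+ libraries. Immediate early genes had 3 of 20 (15%) higher without overlap. The count was 5 without the OPA1+/+ replicate 4, beside 4.91% of all genes. Among the 3, Myc was at 21.5, 27.4, 24.5 and 22.6 CPM in OPA1+/- against 14.04, 15.8, 20.2 and 18.5 CPM in OPA1+/+ libraries (0.48 ± 0.12, edgeR adjusted p = 0.211). All 10 measured lens transcripts and all 8 retinal ones had positive differences, with medians of 1.94 and 1.44, yet none separated the genotypes. The mean of the centred log2 values of the lens genes was 0.47, -1.64, 0.98 and 2.27 in OPA1+/- libraries. In OPA1+/+ libraries it was 0.07, -1.20, -1.59 and 0.64, so higher values were not confined to OPA1+/- libraries. The lens crystallin Cryaa was at 3.38, 0, 13.8 and 56.6 CPM in OPA1+/- against 4.76, 1.02, 0.236 and 7.16 CPM in OPA1+/+ libraries. The OPA1+/- replicate 4 was highest for both tissues. Without it, 9 hypoxia genes, 5 glycolysis genes and 4 neurotrophic genes were higher without overlap, beside 3.88% of all genes. The OPA1+/- replicates 1 and 3, which also held lens RNA, remained in that setting. The part of lens and retinal RNA in these counts was not tested.

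Breeding keeps a stretch of chromosome around a mutant allele, so the neighbours of Opa1 were examined. Of 151 measured genes starting within 10 Mb, 73 differences were positive and 78 negative. Among the 151, 5 were higher (3.31%) and 4 lower (2.65%) without overlap, beside 2.53% and 2.13% of all genes. Over the other 316 measured genes of chromosome 16 these shares were 1.90% and 2.22%. Fam43a, about 1.02 Mb away, differed by -0.29 ± 0.08, St6gal1 by 0.31 ± 0.07 and P3h2 by -0.24 ± 0.07. The neighbouring Hes1 differed by 0.04 ± 0.09 and Atp13a4 by -0.34 ± 0.26.

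The same contrast at 6 months, on 4 other OPA1+/- and 3 other OPA1+/+ libraries, gave 52 called genes (0.335%). Opa1 was again lower, at 47.0, 49.0, 46.9 and 48.5 CPM in OPA1+/- libraries, against 67.9, 66.8 and 73.4 CPM in OPA1+/+ libraries (-0.54 ± 0.06, edgeR adjusted p = 0.000571). Of the 24 genes, 17 had the same sign at 6 months (7 of 12 higher, 10 of 12 lower), beside 54.1% of all genes, and 1, Dlgap5, was called there (-0.60). At 6 months 7 of the 24 had libraries that did not overlap in the same direction: Dusp3, Plk2, mt-Rnr2, Cdca2, Neu3 and Gen1, which did so at both ages, and Dlgap5, which overlapped at 3 months. This stands beside 5.49% of all genes higher and 5.97% lower without overlap at 6 months, where 3 libraries stand on 1 side. Rai1, Itga3 and Zyx were near 0 at 6 months (0.03, -0.04 and -0.01), and Slc16a3 differed by 0.33 ± 0.28 and Bnip3 by 0.31 ± 0.26. The medians of the hypoxia, glycolysis and neurotrophic groups were 0.00, 0.08 and 0.02 at 6 months, and that of the cell cycle group was -0.55. The difference between the ages was tested as the interaction of genotype and age, for which edgeR called 0 genes (smallest adjusted p = 0.1098, with 1086 genes at an unadjusted p under 0.05) and DESeq2 21.

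**Figure D5:**
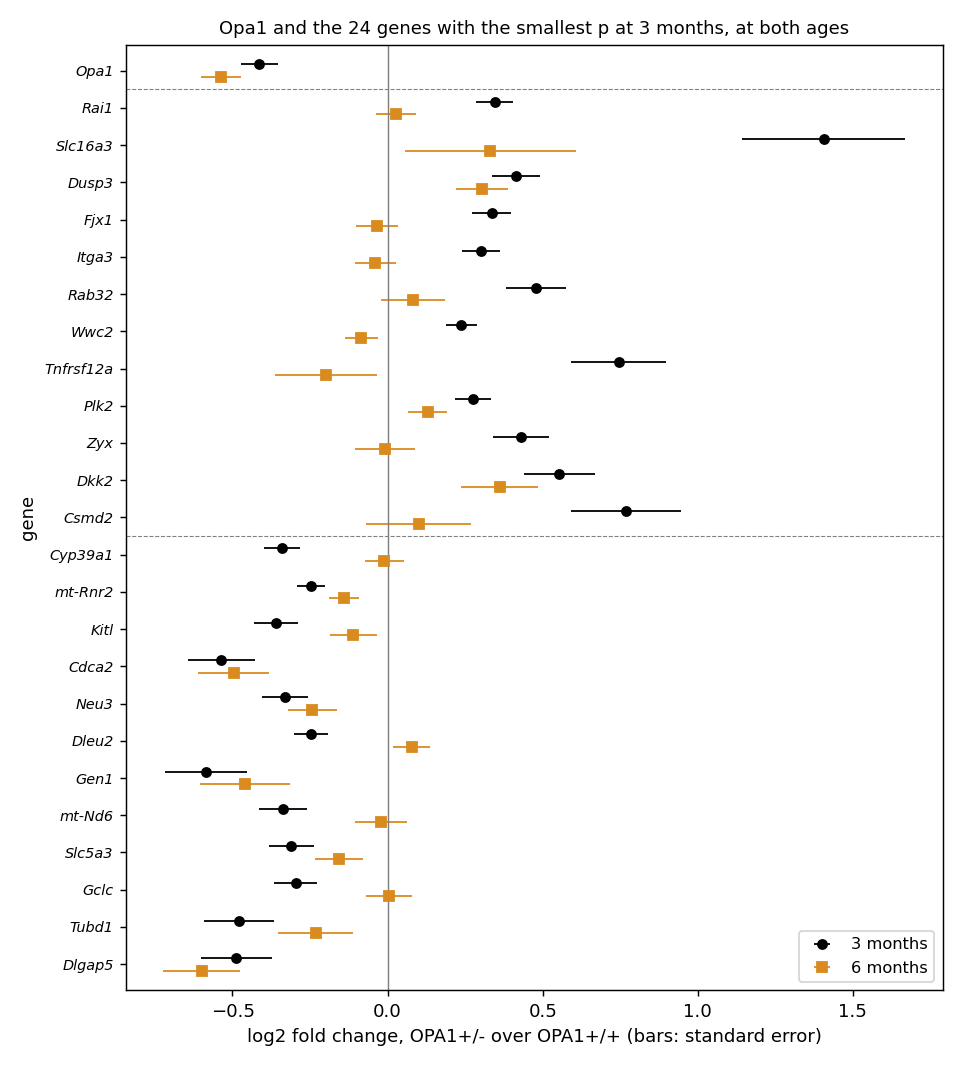
Log2 difference of OPA1+/- minus OPA1+/+ with its SE at 3 months and at 6 months for Opa1 and the 24 genes, one row each. Opa1 is negative at both ages (-0.41 and -0.54), while many of the higher genes lie near 0 at 6 months; the rows were chosen at 3 months.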

How the data were processed

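Cornea RNA was measured in 15 libraries, 8 of them at 3 months. The authors deposited raw counts per gene and library, made with featureCounts version 2.0.1 on the reverse strand (setting 2) against GENCODE mouse release 28, per the file headers (aligner: not given in the sources used here). That release is built on GRCm39 while the submitters' processing notes name mm10 and DESeq2, so coordinates are those of the files. Multimapping reads were not counted per the file headers, which lowers genes with near-identical copies.

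Genes with at least 10 counts in at least 3 of the 8 libraries were kept. TMM scaling and edgeR 4.0.16 quasi-likelihood tests (R 4.3.3) fitted 4 groups of genotype and age on all 15 libraries, with Benjamini-Hochberg adjustment over 15524 genes; the SE is the log2 difference over the root of F. Alternatives were DESeq2 1.42.0, limma 3.58.1 voom, DESeq2's size factors in edgeR, no filter, a mean of at least 1 CPM, the 8 libraries alone, a replicate block, raw CPM and each library left out. Scripts were tested on simulated data. Genes named were Opa1, the 12 higher and 12 lower with the smallest p at 1 CPM or more, up to 3 members per list with the smallest p, and all fusion, fission and mitochondrially encoded genes; others were chosen after their values were seen, and some list members are not reported here. The members and lists were chosen with earlier results of these data known. No replicate pair agreed within sampling noise (chi-square per gene 3.86 to 9.76). Motifs were searched in RefSeq promoters; Python 3.11.15 was used.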

Additional observations from a re-analysis of the deposited data

Results flagged for a closer look

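Within each genotype, 173 values (the genes named, the group means and the mitochondrial shares) were screened for 1 library far from the other 3, by Dixon's gap over range at its 95% critical value. Chance flags about 1 in 20 groups; 21 of 346 (6.07%) were flagged here. The OPA1+/- replicate 4 was far above the others for the mean of the retinal transcripts (2.49 on the centred log2 scale) and for Col4a1 (104 CPM). The OPA1+/+ replicate 4 was far below the others for mt-Nd5 (429 CPM, against 625 to 632), mt-Nd2 (270 CPM), mt-Nd4 (198 CPM) and the share of counts from mitochondrial genes other than ribosomal RNAs (0.343%), and above them for Gap43 (2.47 CPM).

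The other flags were scattered over libraries. In OPA1+/- corneas they were Tnfrsf12a (18.8 CPM), Clpp (16.6 CPM) and the mean of the complex V genes (0.042) in replicate 3, Pgam1 (11.1 CPM) and Mtfp1 (1.91 CPM) in replicate 2, and the mean of the glycolysis genes in replicate 1, which was lower than the others at 0.057. In OPA1+/+ corneas they were Glul (1370 CPM, lower than the others), Hif1a (175 CPM) and Cox6c (36.1 CPM, lower) in replicate 3, Artn (18.22 CPM), Nrp1 (19.1 CPM) and the means of the antioxidant genes (0.036) and of the basement membrane genes (-0.074) in replicate 2, and Yme1l1 (140 CPM) in replicate 1. No gene named here had an interaction of genotype and age past the edgeR threshold.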

How the results depend on the processing

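The lower Opa1 level kept its direction under every alternative run, with log2 differences between -0.48 and -0.36. Its call was lost with the 8 libraries alone (-0.41, edgeR adjusted p = 0.0557), with the replicate number as a block (-0.42, adjusted p = 0.0571) and without both number-4 libraries, an alternative chosen after the data were seen (-0.42, adjusted p = 0.0654); each of those 3 called 0 genes. The count of 1 called gene became 44 in DESeq2, 5 in limma voom and 45 with no filter on low counts, of which 21, 4 and 19 were among the 24, and 0 to 19 when 1 library was left out; the cause was not tested. The interaction gave 21 genes in DESeq2 and 19 with no filter. Same-numbered libraries of the 2 genotypes did not deviate together (correlations of -0.12 to 0.07), so the numbers were not taken as pairs.

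Non-overlapping genes numbered 561 to 845 higher and 491 to 741 lower with 1 library fewer, and 1072 and 993 without both number-4 libraries, where fewer libraries make separation easier. Of 384 comparisons of the 24 genes with an alternative, 329 stayed on the same side of the threshold, 55 moved past it and 0 changed sign. Among other list members the sign turned for Prph2 (-0.81 to 2.51 with 1 library fewer, lowest without the OPA1+/- replicate 4, and -0.69 without both number-4 libraries), Pmel (-0.22 to 0.061, highest without the OPA1+/+ replicate 3) and Gap43 (-0.52 to 0.041, highest without the OPA1+/+ replicate 4). Depth limits genes near 1 CPM: 3 counts correspond to 0.165 to 0.257 CPM.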

Other observations

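The groups not described above are given here by their counts. Of 23 genes of cholesterol synthesis, 17 differences were positive with a median log2 difference of 0.05, and Hsd17b7, a reductase of the pathway, was at 54.7, 52.4, 53.4 and 52.1 CPM in OPA1+/- libraries, against 44.5, 42.3, 50.9 and 45.4 CPM in OPA1+/+ libraries (0.22 ± 0.08, edgeR adjusted p = 0.401). Of 25 heat shock and protein folding genes, 17 differences were negative (median -0.09), 6 were lower and 0 higher at an unadjusted p under 0.05 (4.31% of all genes were lower), and no gene separated the genotypes. Core clock genes and their outputs had 13 of 20 positive (median 0.02), also without separation. At an unadjusted p under 0.05, 3 clock genes were higher and 0 lower (4.81% of all genes were higher). Without the OPA1+/+ replicate 4, 4 clock genes were higher without overlap, beside 4.91% of all genes. Of 19 macrophage and dendritic cell markers 13 were negative (median -0.13), and C1qa, a complement component of resident macrophages, was at 1.33, 1.91, 1.09 and 1.48 CPM in OPA1+/- libraries, against 2.55, 2.40, 1.81 and 2.21 CPM in OPA1+/+ libraries, where 1 OPA1+/- library overlapped (-0.62 ± 0.24, edgeR adjusted p = 0.433). Few markers of other cell types passed the filter: 5 of T and NK cells, all negative (median -0.29), 7 of conjunctiva, 6 of them negative (median -0.26), 6 of vessels, 4 of them negative (median -0.21), and 6 of muscle, 5 of them positive (median 0.19). Their part in the other results was not tested.

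Several genes outside the groups drew attention and were chosen after their values were seen. Piezo1, a mechanically gated channel, averaged 241 ± 8.22 CPM in OPA1+/- and 217 ± 5.74 CPM in OPA1+/+ corneas (SD, n = 4 each), a log2 difference of 0.15 ± 0.04 that was called by DESeq2 and not by edgeR (adjusted p = 0.211), beside -0.14 ± 0.04 at 6 months. Its interaction of genotype and age had an edgeR adjusted p of 0.1098, the smallest value over all genes. Ak4, an adenylate kinase of the mitochondrial matrix, averaged 7.88 ± 0.506 CPM in OPA1+/- and 5.01 ± 1.43 CPM in OPA1+/+ corneas, with no overlap (0.66 ± 0.15, edgeR adjusted p = 0.196). Alox15, a lipoxygenase, averaged 2.12 ± 0.746 CPM in OPA1+/- and 9.0 ± 2.94 CPM in OPA1+/+ corneas, the largest difference of these (-2.11 ± 0.48, edgeR adjusted p = 0.216), and was -1.14 ± 0.57 at 6 months.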
